A study of Mus musculus with 7 samples.

Results

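MHC class II presentation genes were read in 6 Albumin-positive areas of fixed mouse liver, 3 from FFD and 3 from NCD mice. They are H2-Aa, H2-Ab1, H2-Eb1, H2-DMa, H2-DMb1, H2-DMb2, H2-Oa, H2-Ob, Cd74 and Ciita, chosen by name from the target column of the deposited probe table. All 10 were found among its 19951 genes, and all 10 were also among the 13095 genes of the deposited filtered table, on which the test was run. RNA was read by GeoMx digital spatial profiling, where probes for the whole mouse transcriptome bind their targets in the section and light releases their barcodes from a chosen area for sequencing. Each of the 10 genes was read by 1 probe.

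The FFD group comprised 3 regions from 24-week-old mice on the FFD diet, and the NCD group comprised 3 regions from 24-week-old mice on the NCD diet. The comments in the segment table mark all 6 regions as WT, and add a letter J that they do not explain. The diet names are kept as the labels give them, where they stand in the field for genotype. The contents of the diets are not given in the sources used here. The series text gives 3 mice for each diet, and no label ties a region to a mouse, so p-values measure the spread between these regions. All 6 regions lay on 1 slide. Whether more cells carried a transcript or each cell carried more of it cannot be told apart in such areas.

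MHC class II molecules present peptides from internalised proteins to CD4 T cells. An alpha and a beta chain pair in the endoplasmic reticulum around the invariant chain, which is later cut away in endosomes, where the DM molecule exchanges its remnant for peptide and the DO molecule restrains DM. Dendritic cells, B cells and many macrophages express these genes constitutively or on activation under the master regulator Ciita, and hepatocytes have little class II under normal conditions.

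The 8 members other than Cd74 and Ciita lie together on mouse chromosome 17, and class II promoters are known for a pair of elements called X and Y that bind regulatory factor X and nuclear factor Y and recruit the Ciita protein. Stretches with letters matching these elements are shown so that the promoters of members that were and were not called can be set side by side. They come from RefSeq promoter windows on GRCm38.p6, which run from 250 bases before to 50 bases after each annotated start. Each is written 5′ to 3′ on the strand of its gene. Capitals mark the Y motif TGATTGG near the right end and, to its left, either the X motif AACNNATGATG or, where that is not matched, the letters AAC alone.
H2-Aa: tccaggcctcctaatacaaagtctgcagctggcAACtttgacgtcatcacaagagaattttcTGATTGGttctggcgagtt
H2-Eb1: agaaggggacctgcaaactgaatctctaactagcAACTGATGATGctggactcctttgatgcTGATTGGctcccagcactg
H2-DMb1: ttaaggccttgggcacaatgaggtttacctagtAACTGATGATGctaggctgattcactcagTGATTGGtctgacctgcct
H2-DMb2: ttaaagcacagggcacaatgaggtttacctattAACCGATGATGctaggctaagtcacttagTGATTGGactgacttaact
H2-Oa: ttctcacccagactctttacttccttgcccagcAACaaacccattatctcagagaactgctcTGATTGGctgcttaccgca
H2-Ob: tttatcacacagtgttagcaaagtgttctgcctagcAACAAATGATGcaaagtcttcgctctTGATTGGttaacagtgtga

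The stretches lie at chr17:34287855-34287935 on the minus strand for H2-Aa, and on the plus strand at chr17:34305744-34305824 for H2-Eb1, chr17:34153066-34153146 for H2-DMb1, chr17:34145095-34145175 for H2-DMb2, chr17:34092272-34092352 for H2-Oa and chr17:34238784-34238864 for H2-Ob. In all 6 the Y motif began between 45 and 92 bases upstream of the annotated start. AAC began between 26 and 29 bases before the Y motif. It was looked for only in a narrow range around this distance, so the search set the spacing. Both motifs were chosen after these windows had been read, the X motif as the letters common to H2-Eb1, H2-DMb1, H2-DMb2 and H2-Ob at this spacing. For the shares of windows that follow, both strands were searched without requiring a spacing. The Y motif occurred in 7.82% of 32851 such windows across the genome, and the X motif in 0.137%. Both occurred in 9 windows, or 0.0274%, of 7 genes, of which 4 are members (H2-Eb1, H2-DMb1, H2-DMb2 and H2-Ob). The windows of H2-DMa held neither motif, and no window is shown for H2-Ab1, Cd74 and Ciita. A match describes the letters only: the Y motif stands before 3 members that were called higher below (H2-Aa, H2-Eb1 and H2-DMb1) and before 3 that were not called (H2-DMb2, H2-Oa and H2-Ob).

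Total counts overlapped between the diets, whereas the background did not. Counts over the tested genes ran from 2484981 to 2980639 per FFD region and from 2069101 to 3491372 per NCD region. The negative probe level, which measures unspecific probe binding, was 0.206, 0.172 and 0.201 of the region's upper quartile of counts in FFD regions 1 to 3, against 0.264, 0.251 and 0.241 in NCD regions 1 to 3. FFD regions held 1077 to 1264 nuclei and NCD regions 1747 to 1940. Counts over deduplicated reads were 1.20, 1.51 and 1.01 in FFD regions 1 to 3 and averaged 0.997 in NCD regions. The last 3 measures did not overlap between the diets, and with 3 against 3 regions the exact two-sided permutation test gave 0.1, the smallest p it can give (0.12 after adjustment over 6 measures). Their part in the results below was not tested. A target was taken as above the detection limit where it exceeded 2 times the negative probe level of its region. Levels are given as CPM, the counts of a target relative to the library size of its region after upper quartile scaling.

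Against this background, 6 of the 10 members were higher in FFD regions at an adjusted p under 0.05 (edgeR quasi-likelihood test, Benjamini-Hochberg over all 13095 genes). The background share of genes called higher was 5.94%. No member was called lower, at an unadjusted p under 0.05 or by DESeq2 either, and the share of all genes called lower was 11.1%. The split of all calls, 778 higher and 1459 lower, moved to 1138 higher and 893 lower under TMM scaling. Without NCD region 1 it was 486 and 704, without NCD region 2 it was 396 and 617, and without FFD region 2 the lower calls numbered 821. The median log2 fold change was 0.85 over the 10 members and -0.11 over all tested genes. Over the 2258 tested genes at or under the detection limit in every region it was -0.33. In 6 members all FFD regions lay above all NCD regions, against 12.2% of tested genes, and in 1 member, H2-Oa, they all lay below, against 24.5%.

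**Figure D1:**
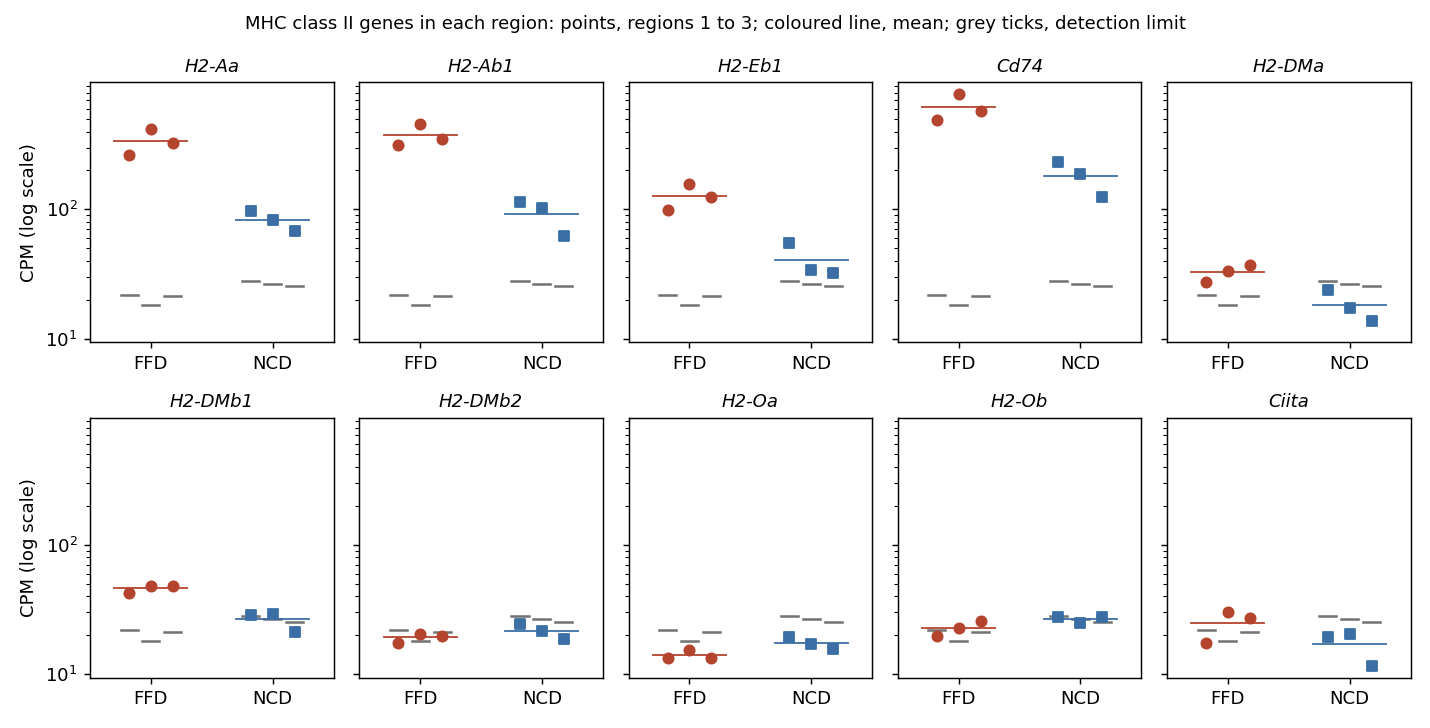
Level of each class II member in CPM (log axis), with FFD regions 1 to 3 left of NCD regions 1 to 3; points are regions, the coloured line is the mean of 3 regions and grey ticks are the detection limit of each region. H2-Aa, H2-Ab1, H2-Eb1, Cd74, H2-DMa and H2-DMb1 have every FFD point above every NCD point, and H2-Oa lies under the ticks in all 6 regions.

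The classical chains, which form the peptide-binding molecule at the cell surface, and Cd74 had the largest log2 fold changes among the members, except that H2-DMa was above them after background subtraction. H2-Aa, the alpha chain of the A molecule, had 264, 421 and 326 CPM in FFD regions 1 to 3, against 97.7, 82.9 and 68.4 CPM in NCD regions 1 to 3. Every FFD region stood well above every NCD region, with FFD region 2 highest. The means were 337 ± 79.4 CPM in FFD and 83.0 ± 14.7 CPM in NCD regions (SD, n = 3 each), a 4.08-fold difference. Its log2 fold change was 2.03 (SE 0.19, 95% confidence interval 1.63 to 2.43, adjusted p = 3.92e-06).

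H2-Ab1, its beta chain partner, had 313, 458 and 348 CPM in FFD regions 1 to 3, against 113, 103 and 61.8 CPM in NCD regions 1 to 3. FFD region 2 was again the highest and NCD region 3 the lowest, with no overlap. The log2 fold change was 2.02 (SE 0.21, 95% confidence interval 1.57 to 2.46, adjusted p = 1.33e-05), or 4.05-fold. The count ratio of H2-Aa to H2-Ab1 was 0.843 to 0.935 in FFD and 0.801 to 1.11 in NCD regions. The size of such a ratio depends on how well each probe binds, so only its spread across regions is read here.

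H2-Eb1, the beta chain of the E molecule, had 99.1, 158 and 125 CPM in FFD regions 1 to 3, against 55.4, 34.1 and 32.3 CPM in NCD regions 1 to 3. The regions did not overlap, and NCD region 1 was the nearest to the FFD regions. The log2 fold change was 1.67 (SE 0.20, 95% confidence interval 1.24 to 2.11, adjusted p = 5.61e-05), or 3.19-fold. H2-Ea, which encodes the alpha partner of H2-Eb1, is no member and lay below the limit in all 6 regions, at 10.3 to 11.4 CPM in FFD and 12.9 to 16.0 CPM in NCD regions.

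Cd74, the invariant chain that occupies the groove of newly made class II molecules, had 492, 778 and 574 CPM in FFD regions 1 to 3, against 233, 188 and 125 CPM in NCD regions 1 to 3. It followed the classical chains in its order of regions, highest in FFD region 2 and lowest in NCD region 3. The log2 fold change was 1.76 (SE 0.22, 95% confidence interval 1.30 to 2.22, adjusted p = 6.77e-05), or 3.39-fold. In raw counts per 100 nuclei, which carry the region's counts per read with them, Cd74 had 104, 232 and 113 in FFD regions 1 to 3, against 27.1, 25.6 and 20.6 in NCD regions 1 to 3. Cd74 and the 3 classical chains were above the detection limit in all 6 regions, and all 4 were among the 100 largest log2 fold changes of the tested genes.

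FFD region 2, the highest of the 6 for these 4 genes, also had the most counts per deduplicated read. Without it, the log2 fold change was 1.84 for H2-Aa, 1.84 for H2-Ab1, 1.49 for H2-Eb1 and 1.56 for Cd74, with adjusted p between 1.61e-05 and 0.000351. All 4 genes stayed past the threshold without that region.

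The members that edit peptides were called at smaller size. H2-DMa, the alpha chain of the DM editor, had 27.4, 33.4 and 36.9 CPM in FFD regions 1 to 3, against 23.8, 17.2 and 13.8 CPM in NCD regions 1 to 3. All FFD regions were higher and above the detection limit, and no NCD region reached it. The log2 fold change was 0.87 (SE 0.20, 95% confidence interval 0.46 to 1.29, adjusted p = 0.00731), or 1.83-fold. With the negative probe level subtracted the log2 fold change was 2.17, so its size depends on how the background is treated.

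H2-DMb1, a beta chain of DM, had 42.3, 48.3 and 47.8 CPM in FFD regions 1 to 3, against 28.7, 29.4 and 21.3 CPM in NCD regions 1 to 3. The FFD regions lay close together and above every NCD region, of which 2 of 3 passed the limit. The log2 fold change was 0.82 (SE 0.15, 95% confidence interval 0.50 to 1.14, adjusted p = 0.00199), or 1.77-fold, and 1.37 after background subtraction. H2-DMb2, the neighbouring beta chain gene, had 17.5, 20.6 and 19.7 CPM in FFD regions 1 to 3, against 24.3, 21.4 and 18.8 CPM in NCD regions 1 to 3. Its diets overlapped, it passed the limit in 1 FFD region and no NCD region, and its log2 fold change was -0.14 (95% confidence interval -0.50 to 0.23, adjusted p = 0.609).

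The DO chains were read near the background. H2-Oa, the alpha chain of DO, had 13.3, 15.3 and 13.2 CPM in FFD regions 1 to 3, against 19.4, 17.2 and 15.7 CPM in NCD regions 1 to 3. It was under the detection limit in all 6 regions, and although every FFD value was the lower, the log2 fold change of -0.30 did not pass (95% confidence interval -0.68 to 0.09, adjusted p = 0.266). The negative probe level was itself lower in FFD regions. H2-Ob, the beta chain of DO, had 19.8, 22.8 and 25.7 CPM in FFD regions 1 to 3, against 27.7, 24.8 and 27.9 CPM in NCD regions 1 to 3. Its diets overlapped, it passed the limit in 2 FFD regions and 1 NCD region, and its log2 fold change was -0.24 (95% confidence interval -0.58 to 0.10, adjusted p = 0.308). With negative probes as the scale, which puts the median of all tested genes at 0.283 in place of -0.107, H2-DMb2, H2-Oa and H2-Ob stood at 0.25, 0.09 and 0.15, and none of them was called.

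Ciita, the coactivator that class II promoters depend on, had 17.5, 30.2 and 27.3 CPM in FFD regions 1 to 3, against 19.4, 20.6 and 11.6 CPM in NCD regions 1 to 3. FFD regions 2 and 3 were the highest, but FFD region 1 lay below NCD regions 1 and 2. It rests on 46 to 97 counts per FFD region and 37 to 49 per NCD region, and passed the detection limit in 2 FFD regions and no NCD region. The log2 fold change was 0.59 (SE 0.24, 95% confidence interval 0.09 to 1.09), which did not pass over all genes (adjusted p = 0.0947). It passed without FFD region 1 (0.78, adjusted p = 0.0324) and with negative probe scaling (0.99, adjusted p = 0.00200), and was 0.33 without NCD region 3.

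**Figure D2:**
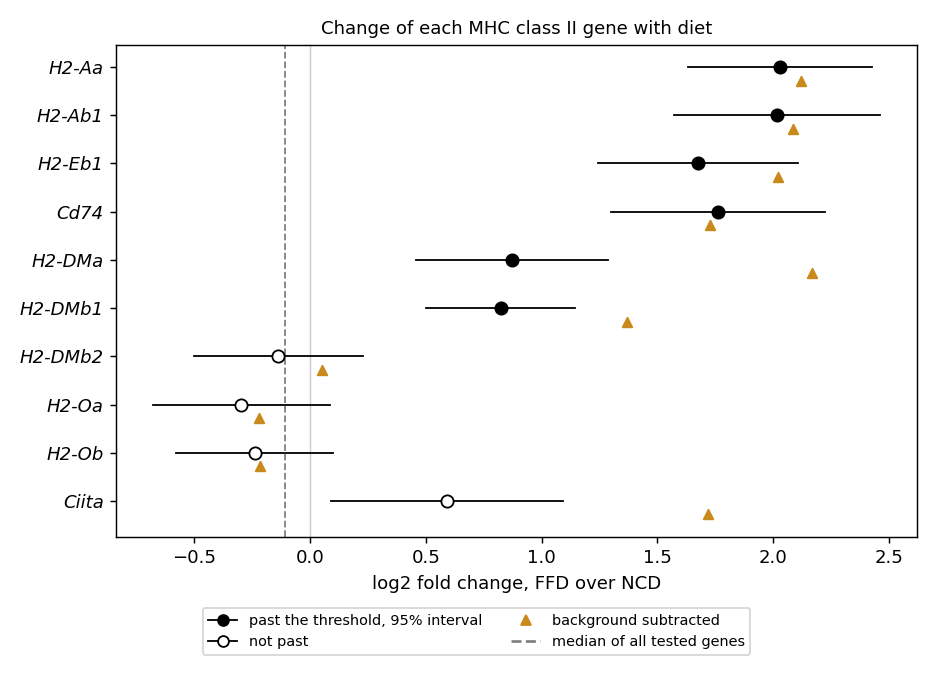
Log2 fold change of each class II member, FFD over NCD (horizontal axis), with its 95% confidence interval; filled points passed the threshold, open points did not, triangles are the values after background subtraction and the dashed line is the median of all tested genes. The 3 classical chains and Cd74 lie between 1.67 and 2.03, and the triangles of H2-DMa (2.17) and Ciita (1.72) lie far right of their points.

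Summed over the 10 members, the level was 1306, 1986 and 1544 CPM in FFD regions 1 to 3, against 643, 539 and 397 CPM in NCD regions 1 to 3. FFD regions did not overlap NCD regions, and the 3 classical chains and Cd74 together gave 1168, 1816 and 1374 CPM of the FFD sums, against 499, 408 and 288 CPM of the NCD sums. The members took 0.138, 0.214 and 0.152% of the counts of FFD regions 1 to 3, against 0.0639, 0.0530 and 0.0362% in NCD regions 1 to 3. Between 6 and 9 members were above the limit in an FFD region, against 5 in each NCD region. The limit in CPM was itself lower in every FFD region than in every NCD region. Counted over all genes, those above the limit numbered 8728 to 10194 in FFD regions and 7940 to 8234 in NCD regions. H2-Ob passed in 2 FFD regions and 1 NCD region at a log2 fold change of -0.24. The number of members above the limit thus depends on the limit as well as on their levels.

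**Figure D3:**
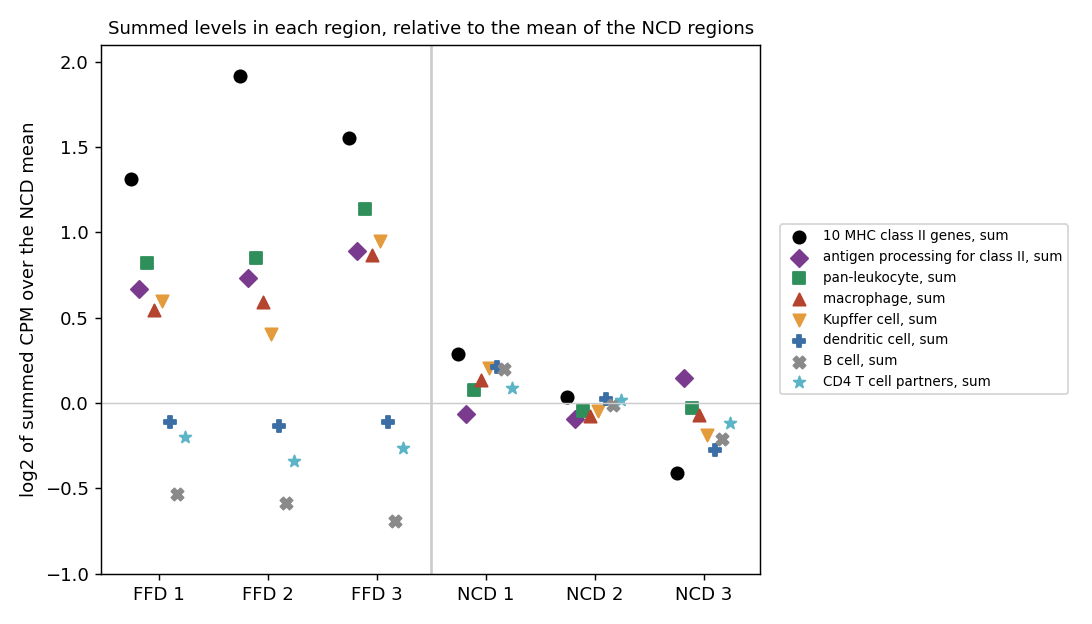
Summed level of the 10 members and of 7 gene lists (antigen processing, pan-leukocyte, macrophage, Kupffer cell, dendritic cell, B cell and CD4 T cell partners) in each region, as log2 of summed CPM over the mean of the NCD regions, with FFD regions left of NCD regions; each symbol is 1 sum in 1 region. The class II sum is highest in FFD region 2, at 1986 CPM, and the B cell sums lie lower in the FFD than in the NCD regions; the lipid-associated macrophage, stellate cell, cholangiocyte, endothelial and hepatocyte sums are not plotted.

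On GRCm38.p6 the 8 members of chromosome 17 lie between positions 34092379 and 34316674, a span of 224.3 kb, while Ciita is at chr16:10480014-10531064 and Cd74 at chr18:60803849-60812652. Within the span the changes were uneven. H2-Ab1, H2-Aa and H2-Eb1 sit together at its upper end, H2-DMa, H2-DMb2 and H2-DMb1 in its lower part, and H2-Oa and H2-Ob apart from both. The span holds 5 other tested genes, which serve class I presentation apart from Brd2. Psmb9 and Psmb8, subunits of the immunoproteasome, were higher, at a log2 fold change of 0.48 (adjusted p = 0.0237) and 0.59 (adjusted p = 0.0117). Brd2 at 0.09, Tap1 at 0.16 and Tap2 at 0.26 did not pass. Neither immunoproteasome gene passed without NCD region 2 (0.43, adjusted p = 0.110, and 0.51, adjusted p = 0.0748), and Psmb9 did not pass without FFD region 2 or NCD region 1 either.

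**Figure D4:**
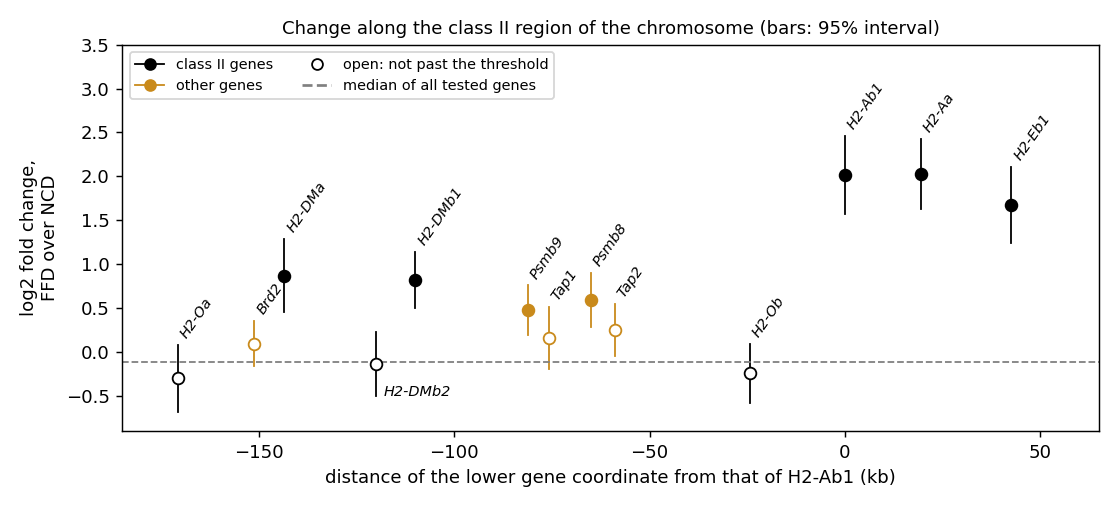
Log2 fold change, FFD over NCD, of the 13 tested genes in the class II span of chromosome 17 (vertical axis), placed by the distance of the lower gene coordinate from that of H2-Ab1 in kb; bars are 95% confidence intervals and open points did not pass. H2-Ab1, H2-Aa and H2-Eb1 stand at 1.67 to 2.03, H2-DMa at 0.87 and H2-DMb1 at 0.82, and Psmb8 at 0.59 is the highest of the genes that are not members.

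Among the factors that occupy class II promoters or modify their chromatin, 1 of 9 was called, and it was lower. Beside the list counts here and below, the shares of all tested genes called were 5.94% higher and 11.1% lower. Nfyb, a subunit of nuclear factor Y, had 84.6, 70.4 and 70.3 CPM in FFD regions 1 to 3, against 122, 130 and 118 CPM in NCD regions 1 to 3 (log2 fold change -0.71, adjusted p = 0.00200). The other 8, among them Rfx5, Rfxap and Rfxank of regulatory factor X, were not past the test. Along the interferon gamma route that induces Ciita, 4 of 9 tested genes were higher. They were the receptor chains Ifngr2 (0.57) and Ifngr1 (0.46) and the transcription factors Irf8 (0.59) and Spi1 (0.53), with adjusted p between 0.00647 and 0.0417. That count was 2 without FFD region 3 and 1, Irf8, without NCD region 2. The cytokine gene Ifng, named after its value was seen, was called lower (-0.59, adjusted p = 0.0455) but was under the limit in all 6 regions and lost its call when any region was left out.

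Of 9 antigen processing genes, which prepare peptide and cut the invariant chain, 6 were higher and none was lower, nor was any lower at an unadjusted p under 0.05 or by DESeq2, and their median log2 fold change was 0.98. Ctss, the cysteine protease that makes the last cuts in the invariant chain, had 215, 265 and 231 CPM in FFD regions 1 to 3, against 119, 104 and 85.9 CPM in NCD regions 1 to 3. All FFD regions were above all NCD regions, and the log2 fold change was 1.21 (SE 0.15, adjusted p = 8.36e-05). The endosomal proteases Ctsb (1.25), Lgmn (1.20) and Ctsd (1.03) were higher too, with adjusted p between 0.000217 and 0.000378. Cst3 and Ifi30 made up the 6, and Ifi30 did not pass without NCD region 2 (0.74, adjusted p = 0.0545).

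Genes for turnover and surface partners of class II gave 1 call in 7, the tetraspanin Cd81 (log2 fold change 0.92, adjusted p = 0.00103). Of 5 tested co-stimulation genes 1 was lower, Pdcd1lg2 (-0.77, adjusted p = 0.00974), which was under the limit in every region. No T cell gene of the 4 tested passed (Trac, named after its value was seen, was lower at an unadjusted p of 0.0126), and 1 was called lower without FFD region 1 or NCD region 3. Cd4, the co-receptor for class II, was not in the filtered table and stayed under the limit, at 6.86 to 11.4 CPM in FFD and 10.5 to 12.2 CPM in NCD regions. Lag3, another class II receptor, was at 15.6 to 18.7 CPM in FFD and 20.9 to 23.2 CPM in NCD regions, also outside the filtered table. For class I presentation, 4 of 9 genes were higher: H2-D1 (0.98), H2-K1 (0.64), Psmb8 and Psmb9. The count was 2 without NCD region 1 and 1, H2-D1, without NCD region 2, where H2-K1 was at 0.58 (adjusted p = 0.0971). The H2-D1 and H2-K1 targets are shared with related genes.

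**Figure D5:**
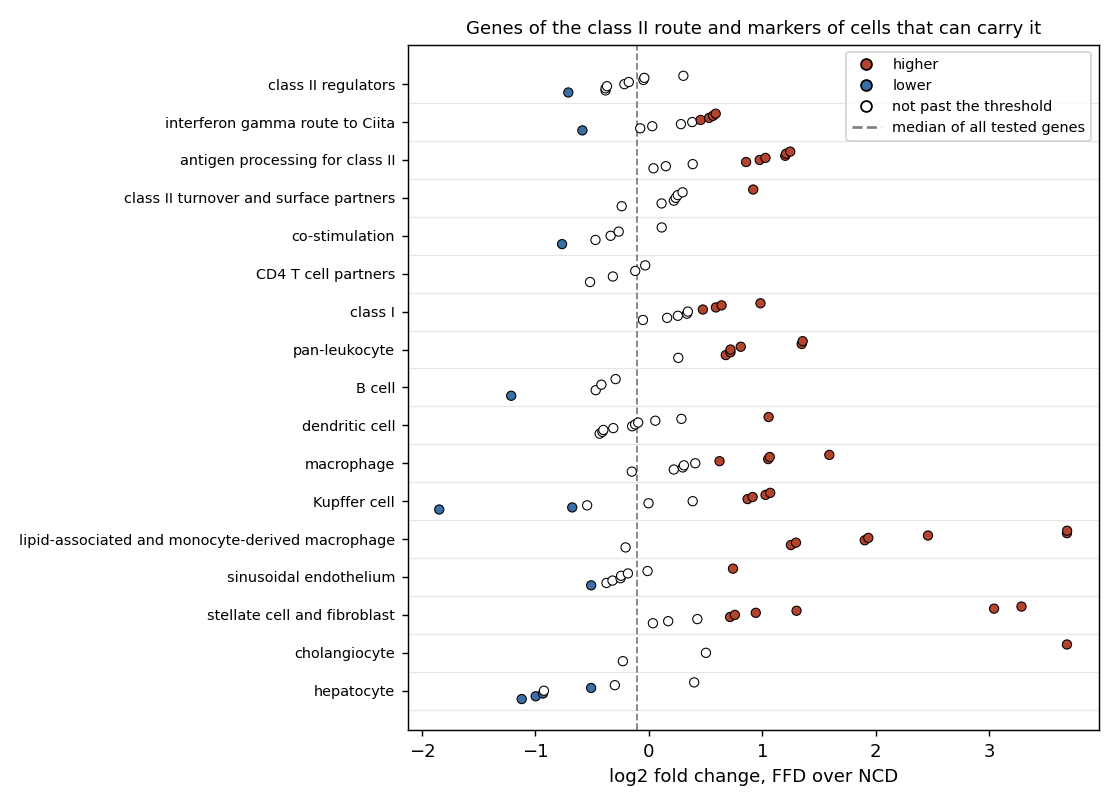
Log2 fold change, FFD over NCD (horizontal axis), of each tested gene of the pathway and marker lists, 1 row per list; filled points were called higher or lower, open points did not pass and the dashed line is the median of all tested genes. The antigen processing row has 6 genes called higher between 0.86 and 1.25, and the B cell row has every point left of the dashed line.

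Markers of the cells that carry class II moved unequally beside the members. Pan-leukocyte genes summed to 553 to 688 CPM in FFD and 303 to 330 CPM in NCD regions, and 6 of 7 were higher, including Cd52 (1.36), Laptm5 (1.35) and Lcp1 (0.81) on the log2 fold change scale. Ptprc, the leukocyte phosphatase CD45, was at 0.72 and did not pass without NCD region 2 (0.59, adjusted p = 0.0660). It was above the limit in no NCD region. General macrophage genes summed to 726 to 909 CPM in FFD and 473 to 547 CPM in NCD regions, with 4 of 9 higher. Among them were Mpeg1 (1.59), Lyz2 (1.05) and Adgre1 (0.62), and Csf1r (0.41) did not pass. Lyz2 was above the limit in no NCD region. Adgre1 did not pass without NCD region 2 (0.61, adjusted p = 0.0541).

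Genes of lipid-associated and monocyte-derived macrophages had a median log2 fold change of 1.92, and summed to 1102 to 1658 CPM in FFD and 244 to 249 CPM in NCD regions. The negative probe level alone would give 91.0 to 109 CPM in FFD and 127 to 140 CPM in NCD regions. Of 8 tested, 7 were higher, including Mmp12 (3.69), Gpnmb (2.46), Clec7a (1.90) and Trem2 (1.30). Each of these named genes passed the limit in no NCD region. The list also holds Itgam (-0.21), which did not pass, and Ccr2 and Cx3cr1, which were not in the filtered table. Itgam and Ccr2 were under the limit in every region. The diets overlapped for Cx3cr1, with means of 18.2 CPM in FFD and 16.1 CPM in NCD regions. Spp1, which is on the cholangiocyte list too, gave much of the FFD sums. It had 830, 953 and 193 CPM in FFD regions 1 to 3, against 30.1, 50.5 and 70.9 CPM in NCD regions 1 to 3. Kupffer cell genes summed to 1225 to 1786 CPM in FFD and 813 to 1066 CPM in NCD regions, with 4 of 9 higher and 2 lower. The higher ones were the complement genes C1qa (0.91), C1qb (1.03) and C1qc (0.87), and Cd5l (1.07). Vsig4 (0.39) and Marco (-0.54) did not pass. Clec4f, the defining Kupffer gene, had 122, 70.8 and 172 CPM in FFD regions 1 to 3, against 126, 115 and 123 CPM in NCD regions 1 to 3. It was thus above the limit in areas that the segment table does not mark as CLEC4F-positive, and its fold change did not pass (95% confidence interval -0.48 to 0.47 on the log2 scale). Cd163 was lower (-1.85, adjusted p = 0.000169), and Timd4 (-0.68, adjusted p = 0.0489) lost its call without FFD region 1 or 2 or NCD region 1 or 2, at -0.69, -0.39, -0.61 and -0.61. Of 10 tested dendritic cell genes 1 was higher, Itgax (1.06), which some macrophages also express, while Flt3, Xcr1, Clec9a and Zbtb46 did not pass. Itgax was above the limit in no NCD region. Without NCD region 3, 3 dendritic cell genes were called lower. Dendritic cell genes summed to 264 to 269 CPM in FFD and 240 to 335 CPM in NCD regions, where the negative probe level alone would give 100 to 120 and 140 to 154 CPM.

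B cell genes summed to 101 to 112 CPM in FFD and 140 to 186 CPM in NCD regions, where the negative probe level alone would give 72.8 to 87.1 and 102 to 112 CPM. Of 4 tested 1 was lower, Ms4a1 (-1.21, adjusted p = 0.000971), and Cd79a was under the limit in all 6 regions. Of 9 stellate cell and fibroblast genes 6 were higher, among them Col1a1 (3.28), Col3a1 (3.04) and Dcn (0.94). Col1a1 was above the limit in no NCD region. Lrat (0.43) did not pass but did so without FFD region 2 (0.60, adjusted p = 0.0375). Of 8 tested endothelial genes 1 was higher (Lyve1, 0.74) and 1 lower (Kdr, -0.51), and Stab2 (-0.32) and Stab1 (-0.18) did not pass. The Lyve1 call was lost without FFD region 1 or 3 or NCD region 1 or 2 (0.64 to 0.68), the Kdr call without FFD region 2 or 3 or NCD region 1 or 2 (-0.51 to -0.40), and Stab2 passed without FFD region 1 (-0.60, adjusted p = 0.0123). Of 3 tested cholangiocyte genes 1 was higher, Spp1 (3.68), which is also on the lipid-associated macrophage list. Krt7 (-0.23) did not pass, Krt19 was not in the filtered table, and the count was 2 without FFD region 3.

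The 7 hepatocyte genes tested were above the limit in every region. Alb had 27971, 28938 and 50062 CPM in FFD regions 1 to 3, against 56816, 61524 and 84772 CPM in NCD regions 1 to 3 (log2 fold change -0.93, adjusted p = 0.0648), and passed without FFD region 3 (-1.25, adjusted p = 0.0117). Of 7 tested hepatocyte genes 4 were lower, among them Fgb (-1.12) and Apoa1, which did not pass without FFD region 2 or NCD region 2, while Ttr (-0.30) did not pass. Apob, named after its value was seen, lay higher in all FFD regions (0.40) and did not pass (adjusted p = 0.126). On total counts and with negative probe scaling 1 hepatocyte gene was called higher. The count of lower genes was 2 without FFD region 2 and 1 without NCD region 2. The regions held leukocyte, macrophage and stellate cell transcripts beside the hepatocyte ones, and the part that each played in the class II result was not tested.

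Over the 6 regions, the mean log2 CPM of the 7 members above the limit in at least 3 regions was most closely followed by the targets Gm20792 (Pearson r = 0.997), Ctss (0.996), Erp29 (0.993), Il10rb (0.992), Fxyd5 (0.991), Trem2 (0.990), Ipo4 (0.989) and Dbndd2 (0.988). The measure was taken over 9052 genes, of which 98 exceeded 0.95. Each of the 8 was higher in all FFD regions than in all NCD regions, which their choice by closeness to this profile made likely. Gm20792 is a target shared by several genes. The coefficient describes these 6 regions only. Among the 7 members that make the profile, Cd74 stood at 0.997, the 3 classical chains between 0.991 and 0.993, H2-DMb1 at 0.981 and H2-DMa at 0.962, while H2-Ob stood at -0.597. Of the other members Ciita stood at 0.807, H2-DMb2 at -0.217 and H2-Oa at -0.603.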

How the data were processed

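RNA in 6 liver regions, 3 FFD and 3 NCD, was read with the GeoMx mouse probe set. The deposited probe table holds expected counts per target, as does the filtered table that the authors deposited (13099 of 19963 targets), and its filter rule is not given in the sources used here. Values in the deposited Q3 table are a signal, namely the filtered values scaled by each region's 75th percentile. Per the file headers, nuclei and reads are counts and sequencing saturation is a percent. The submitters' processing notes name GRCm38 and edgeR but no version.

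The 13095 genes of the filtered table were tested with edgeR 4.0.16 (glmQLFit, glmQLFTest, R 4.3.3), upper quartile scaling, diet as sole term and Benjamini-Hochberg adjustment over these genes at 0.05. Values of 3 genes that were not whole were rounded. The 4 targets left out are not genes, and such targets held 0.0145 to 0.0192% of counts. CPM come from edgeR's cpm on the scaled library sizes. SE is the absolute log2 fold change over the square root of the F statistic, and the 95% interval uses it with the fit's degrees of freedom. The biological coefficient of variation was 12.0%. Depth was 2069101 to 3491372 counts per region.

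Members and gene lists were chosen with earlier results of these data known, so the lists support nothing independently. Named were all members, up to 4 genes past the threshold by p from each pathway list (otherwise the first 2), the first 2 and up to 2 further called genes of each marker list, the 8 genes closest in profile, and called genes between the outermost members on chromosome 17. Some genes that this rule picked are left out of the text. Sequences are from RefSeq on GRCm38.p6, and windows of 7 of 10 members were used. Windows on chromosome 18, where Cd74 lies, were left out of the member scan, so its promoter was not compared. Alternatives were TMM, DESeq2 1.42.0 size factors, total counts and negative probe scaling, the DESeq2 Wald test, edgeR with robust fitting, voom, limma 3.58.1 on the Q3 signal, other filters, subtraction of the negative probe level and leaving out each region. The control without template was not used here.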

Additional observations from a re-analysis of the deposited data

How the results depend on the processing

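H2-Aa, H2-Ab1, H2-Eb1, Cd74, H2-DMa and H2-DMb1 were called higher in 18 of 18 alternatives, with log2 fold changes of 1.84 to 2.45, 1.79 to 2.44, 1.49 to 2.09, 1.55 to 2.19, 0.68 to 2.17 and 0.67 to 1.37. H2-DMb2 (-0.24 to 0.25), H2-Oa (-0.38 to 0.09) and H2-Ob (-0.33 to 0.15) were never called. Ciita ranged from 0.33 to 1.72 and was called in 2 of 17, so 7 members were higher under negative probe scaling and without FFD region 1. Requiring the detection limit in at least 3 regions left 7 members to test. The median over all genes was -0.107 with upper quartile scaling and 0.283 with negative probe scaling, under which 3632 genes were higher and 206 lower, and 70 and 3 of the list genes against 44 and 11. Genes called lower, 1459 otherwise, numbered 893 under TMM, 894 under DESeq2 size factors, 604 on total counts, 462 by the DESeq2 Wald test and 807 after background subtraction. List genes lower numbered 7 under TMM, 7 under DESeq2 size factors, 6 by the Wald test, 7 with no filter and 7 with filterByExpr. Leaving out 1 region gave 396 to 853 genes higher and 617 to 1778 lower, and 33 to 44 and 5 to 13 list genes. The negative probe level stood at a log2 ratio of -0.386, and at -0.435 to -0.309 on leaving out 1 region. No paired analysis was possible because no replicate number in GEO's labels occurs in both diets. The number of regions and the closeness of the DM, DO and Ciita readings to the negative probes limit their precision.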

Other observations

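Raw H2-Aa counts per 100 nuclei were 55.7, 126 and 64.2 in FFD regions 1 to 3, against 11.4, 11.3 and 11.2 in NCD regions 1 to 3. The NCD regions lay closer together on this measure than in CPM, where they spanned 68.4 to 97.7. Raw counts per nucleus are not scaled for depth, which ran from 2069101 to 3491372 counts among the NCD regions. H2-DMb2, whose diets overlapped, passed the limit in 1 FFD region and no NCD region. Its deviations from the diet means followed those of the member profile over the 6 regions (r = 0.994). Those of H2-Oa (r = 0.911) and Ciita (r = 0.894) did so too, and those of H2-Ob did so less (r = 0.310), as a description of 6 values. H2-Oa was under the limit in all 6 regions. The share of all tested genes that followed the member profile as closely was not counted, so no link between genes is read from these coefficients. H2-Eb2, another class II target outside the filtered table, averaged 11.5 ± 0.740 CPM in FFD and 17.3 ± 0.149 CPM in NCD regions (SD, n = 3 each) and was under the detection limit in all 6.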
